A study of Mus musculus with 6 samples.

Results

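Of 14236 circular RNAs (circRNAs) measured in mouse heart, 243 were detected in the RNA left behind by an m6A antibody and not, or on 1 array only, in the RNA it pulled down. They were selected on the scanner software's mark for a spot well above background, over 5 of the 6 arrays. A circRNA was chosen when this mark was set in the supernatant channel on at least 4 of the 5 and in the immunoprecipitated (IP) channel on at most 1. Control 1 took no part in the choice, so its values are the only ones independent of it. The low IP signal of these circRNAs on the other 5 arrays is therefore how they were found and not a result.

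A circRNA is formed when a splice donor is joined back to an upstream acceptor, which closes the RNA into a ring without free ends. m6A is a methyl group on the N6 position of adenosine that METTL3 and METTL14 write, FTO and ALKBH5 can remove and YTH-domain proteins bind, and on circRNAs it is known to promote cap-independent translation and cleavage. In an m6A immunoprecipitation, RNA carrying the mark is held by the antibody and other RNA stays in the supernatant. The array reads the 2 fractions side by side for each circRNA.

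The samples were hearts of BALB/c mice, 3 from a control group and 3 from a group given chronic intermittent hypoxia (CIH), which models the repeated oxygen drops of obstructive sleep apnea. In the chamber O2 went down to 6% for 60 s and back to 21% for 60 s, a cycle of 2 min run 30 times an hour, 8 h a day, for 8 weeks, and the labels give no age, sex or control air for the mice. Both RNA fractions of a sample were treated with RNase R, to remove linear RNA, and read on 1 array. The IP was in Cy5 and the supernatant in Cy3, with no dye swap. The labels name a blood RNA kit although the tissue is heart, and do not say that replicates came from separate animals, so the spread behind each p-value is that of these samples alone and may be technical.

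Signals are given as log2 values with each array's 75th percentile over circRNA probes set to 0. Different probes bind with different strength, so a brighter circRNA is not shown to be a more abundant one. The files pair the vendor's circRNA IDs with no host gene, position or sequence, so none is printed. Among the heart and blood cell markers listed for a check of the tissue, Hspb7, a small heat shock protein gene of heart and skeletal muscle, was the one with an mRNA probe, and its 10 spots passed the background limit for IP and supernatant alike on each of the 6 arrays. An mRNA probe thus still gave signal after RNase R, and how much linear RNA remained was not tested. Over all circRNAs, 27.1% to 43.8% were well above background in the supernatant channel of an array and 31.8% to 50.7% in the IP channel.

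Control 1 stood apart as an array. Over all circRNAs, its supernatant signal correlated with the IP signal of the other 5 arrays at r = 0.93 to 0.96 and with their supernatant signal at 0.90 to 0.92. On each of the other 5 arrays the order was the reverse, with 0.87 to 0.92 against the IP and 0.94 to 0.97 against the supernatant of the others of these 5. Across the 243 circRNAs alone, the supernatant of control 1 correlated with the supernatant of the other arrays at 0.42 to 0.64 and with their IP at -0.12 to 0.23. These correlations are across circRNAs, which are not replicates and share probe strength. The sources used here do not say whether the control 1 fractions were handled differently, and the part of this in the values of control 1 and in each comparison that includes it was not tested, so these comparisons are also given without it.

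Detection of the 243 was uneven between arrays. In the supernatant channel 241 were well above background on control 2, 147 on control 3, 215 on CIH 1, 240 on CIH 2 and 242 on CIH 3. Control 3, which also had the fewest circRNAs of any kind above background in this channel, accounted for 96 of the 130 circRNAs that missed 1 array, and 113 were detected there on all 5. In the IP channel 142 were not well above background on any of the 5 arrays and 101 were so on 1, which was CIH 3 for 58 and control 2 for 38. CIH 3 and control 2 were the arrays with the most circRNAs above background in the IP channel overall (7224 and 6980).

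**Figure D1:**
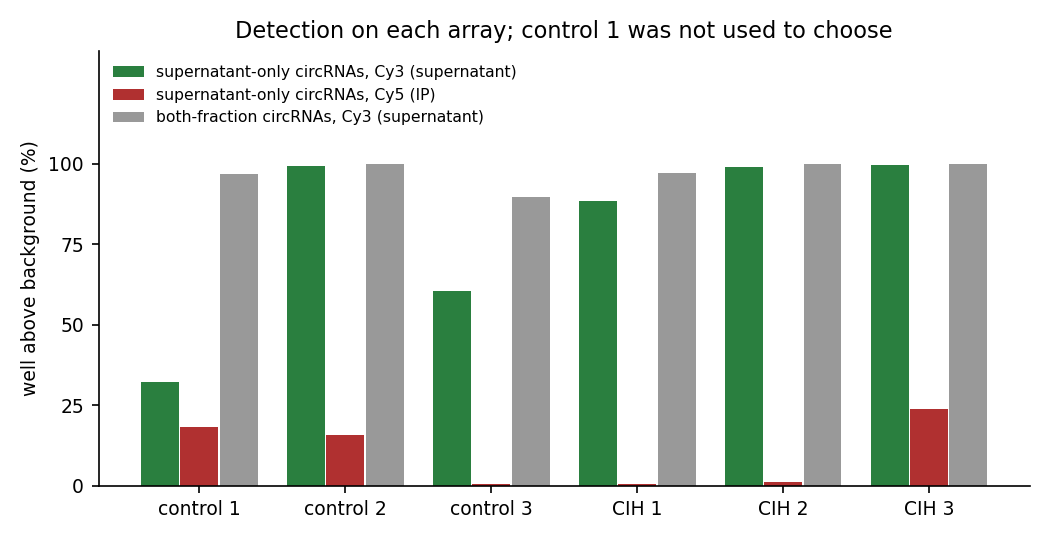
Percentage of circRNAs well above background on each of the 6 arrays, for the 243 supernatant-only circRNAs in the supernatant (green) and IP (red) channels and for the 3781 circRNAs detected in both fractions in the supernatant channel (grey). On control 1, which was not used to choose them, 32.1% of the supernatant-only circRNAs were detected in the supernatant, against 96.6% of the circRNAs of both fractions.

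With the software's looser mark for a positive signal that differs from background, 116 (control 3) to 219 (control 2) of the 243 had an IP signal on a given array, 71 had one on all 5 arrays and 4 on none. Over the 5 arrays, signal over local background had a median of 1.53 to 2.33 for the IP and of 2.75 to 4.55 for the supernatant. For the limit in the IP channel, the median of the mean IP signal over the 5 arrays was -2.14 for the 101 circRNAs with the IP mark on 1 array and -1.69 for the 137 left out because they had it on 2. For the limit in the supernatant channel, the median of the mean supernatant signal was -0.39 for the 130 with the mark on 4 arrays and -0.98 for the 213 left out because they had it on 3. By name, ASCRP4001899 lay just inside the limit with IP signals of -2.45 and -1.06 on control 2 and 3 and of -1.50, -1.61 and -1.12 on CIH 1, 2 and 3. ASCRP4003734 lay just outside it with -2.02 and -3.18 on control 2 and 3 and -2.96, -2.84 and -1.73 on CIH 1, 2 and 3. These were taken as the extremes of either side, among the brightest in the IP inside and the dimmest outside, so their order is that of the choice.

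The supernatant signals were of middling brightness. The mean over the 5 arrays ran from -1.24 to 2.19 with a median of -0.04, was above 0 for 116 of the 243 and above 1 for 30. By array, the median was 0.17 on control 2, -0.18 on control 3, 0.08 on CIH 1, 0.15 on CIH 2 and -0.02 on CIH 3. The CIH medians all lay between those of control 2 and control 3. In the IP channel the medians were -2.75 on control 2, -3.03 on control 3, -2.22 on CIH 1, -2.30 on CIH 2 and -2.52 on CIH 3. The IP signals were mostly below the background limit, with 1 to 58 of the 243 above it on an array. On these arrays 24 to 127 of the 243 had no positive, significant IP signal.

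**Figure D2:**
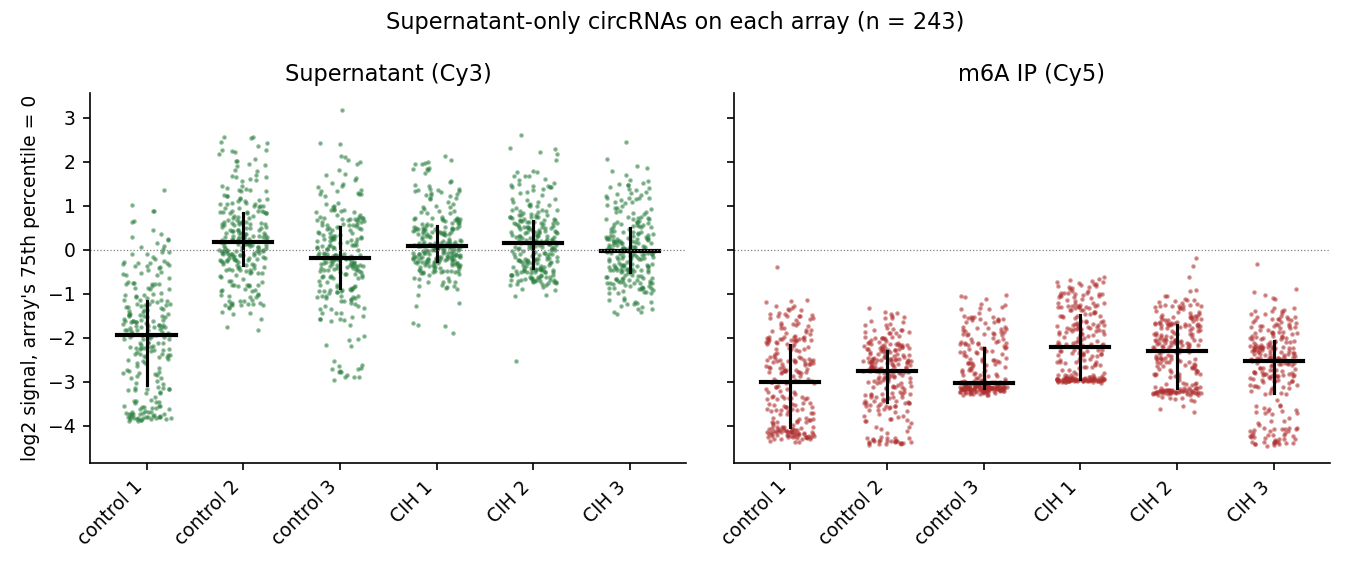
Log2 signal of each of the 243 supernatant-only circRNAs on each array, supernatant on the left and IP on the right, with each array's 75th percentile over circRNA probes at 0. Thick bars are medians and thin bars run from the lower to the upper quartile. The supernatant median is -1.93 on control 1 and between -0.18 and 0.17 on the other arrays.

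Individual circRNAs varied over the 5 arrays with a median SD of 0.48, from 0.06 to 1.34. Within the 3 CIH arrays the median SD was 0.28, and circRNAs of both fractions had a median SD of 0.24 over the 5 arrays. Across the 243 circRNAs, signals of control 2 and the 3 CIH arrays correlated pairwise at r = 0.75 to 0.85, while those of control 3 correlated with these 4 at r = 0.39 to 0.50. These correlations are across circRNAs on arrays of 1 design, so probe strength is shared, and they are given as a description. For circRNAs of both fractions, which cover a wider range of brightness, the same 2 sets of pairs gave 0.98 to 0.99 and 0.95 to 0.96, and pairs with control 1 gave 0.87 to 0.91.

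The brightest of the 243 by mean supernatant signal over the 5 arrays was ASCRP4003064. Its supernatant signal was 2.24 on control 2, 2.04 on control 3 and 1.97, 2.62 and 2.07 on CIH 1, 2 and 3, with 0.09 on control 1. Its IP signal was not well above background on any array, with values from -2.94 on CIH 1 to -1.12 on CIH 2. The 5 arrays of the rule thus lay within 1 log2 unit of each other and control 1 lay apart.

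ASCRP4008992 and ASCRP4001602 had the same layout. ASCRP4008992 had supernatant signals of 2.42 and 1.70 on control 2 and 3, 2.13, 1.69 and 1.80 on CIH 1, 2 and 3, and -0.05 on control 1. ASCRP4001602 had 1.80 and 1.46 on control 2 and 3, 2.04, 2.04 and 1.87 on CIH 1, 2 and 3, and -0.64 on control 1. The IP signals of both were below the background limit on all 6 arrays.

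ASCRP4002235, also among the 5 brightest, was the one with a supernatant signal on control 1 (1.37) close to those on the other arrays. It had 2.45 and 2.40 on control 2 and 3 and 1.74, 1.68 and 1.59 on CIH 1, 2 and 3, so its CIH arrays lay below control 2 and 3 but above control 1. The circRNA with the preceding ID, ASCRP4002234, was also among the 243, with 1.95 and 2.10 on control 2 and 3, 1.34, 1.30 and 0.93 on CIH 1, 2 and 3, and 0.88 on control 1, and was looked up after its values were seen. Whether these IDs share a host gene or probe sequence is not given in the sources used here. In all, 14 of the 243 stood next to another of them in ID order, and of the 484 circRNAs with an ID next to one of the 243, 2.89% were among the 243, where they made up 1.71% of all circRNAs.

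**Figure D3:**
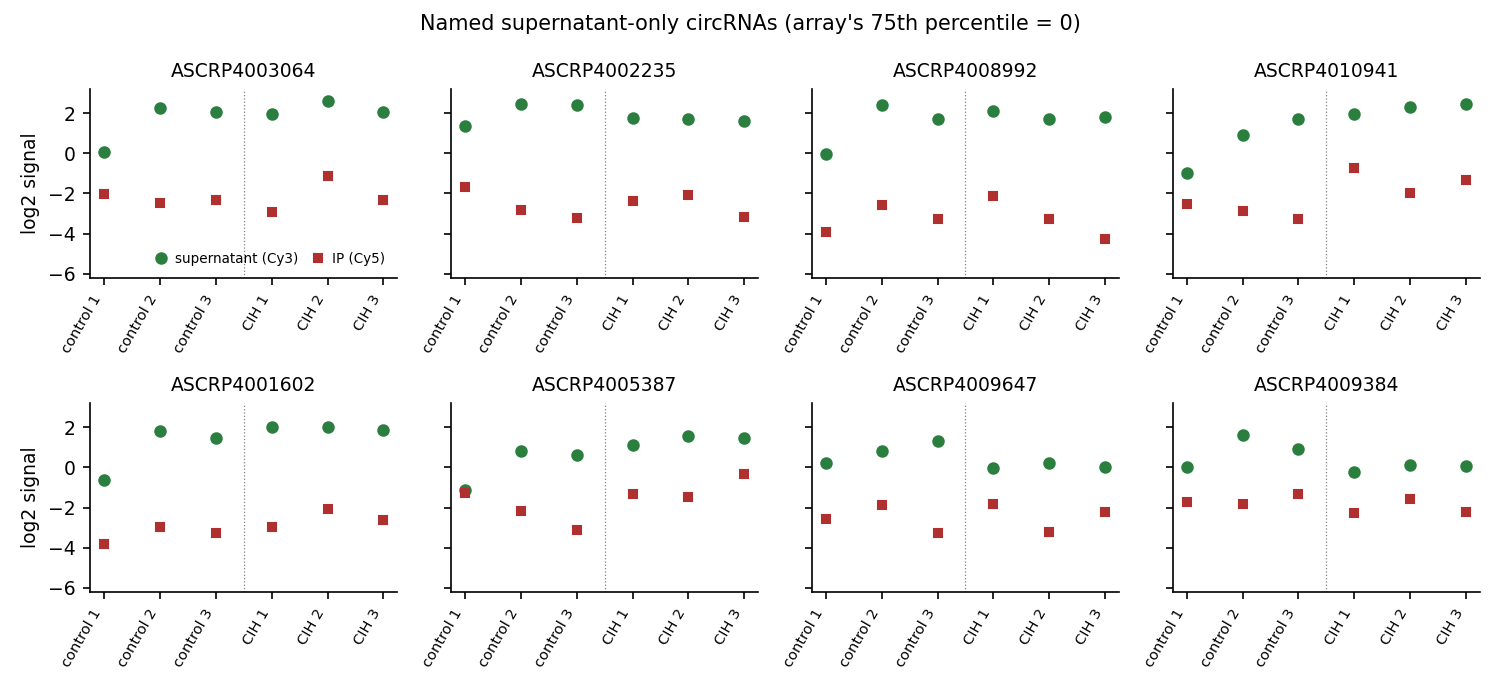
Log2 supernatant (green circles) and IP (red squares) signals on the 6 arrays for the 5 brightest supernatant-only circRNAs and for those with the smallest p for a higher or lower supernatant signal in CIH, 8 circRNAs in all. In ASCRP4003064, ASCRP4008992 and ASCRP4001602 the supernatant signal on control 1 lies near or below 0 while the other 5 arrays lie between 1.46 and 2.62.

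A gap between the channels can be given only as a lower bound, because the IP signal was below the background limit. For each array the IP value was set to the higher of the circRNA's own signal and the lowest IP signal well above background on that array, after centring the ratio on the array's median. This gap was what the rule selected and has no test, and with no dye swap it includes the dye response of each probe. The supernatant value was used as measured, also where it was below the background limit. Of the 142 circRNAs with no IP mark on the 5 arrays, 82 lacked the supernatant mark on 1, so theirs is not a strict bound. Over the 142, the bound had a median of 2.64-fold (quartiles 2.01 and 3.67), and the highest was at least 12.6-fold, for ASCRP4003064. For this circRNA the bound was at least 13.5-fold over control 2 and 3 and at least 12.0-fold over CIH. Over circRNAs without an IP mark in the group, again with the supernatant as measured, the median bound was 2.89-fold over control 2 and 3 (204 circRNAs, 4 of which had no bound above 1). It was 2.76-fold over CIH (181 circRNAs). On control 1, which took no part in the choice, it was 1.01-fold (199 circRNAs, 97 of which had no bound above 1). There 143 were below the background limit in the supernatant too, so theirs is not a strict bound. These values are over different sets of circRNAs and do not compare the groups. Over the 142, the median bound was 2.64-fold (a log2 value of 1.40) in this setting. It was a log2 value of 0.31 with normexp, loess and Aquantile normalization of the median spot signals.

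On control 1, the array that was not used to choose them, most of the 243 were below the background limit in the supernatant. There 78 (32.1%) were well above background, against 3798 (93.7%) of the 4055 other circRNAs detected in the supernatant on at least 4 of the 5 arrays. The 243 were dimmer and these sets were not matched for brightness. The median of the mean supernatant signal over the 5 arrays was -0.04 for the 243. It was 1.27 for all circRNAs detected in the supernatant on at least 4 of the 5, the 243 included. The median supernatant signal was -1.93 on control 1, lower by 2.05 log2 units at the median than the mean of the other 5 arrays, and 214 of the 243 were lower there than on every other array. With each signal below background raised to the lowest signal well above background on control 1 (-1.41), the median difference was -1.18, or 2.27-fold lower, with the other 5 arrays as measured. This is 1 array, so the difference has no replicate and no test.

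On control 1 the IP channel was well above background for 44 of the 243 (18.1%), against 38 on control 2 and 58 on CIH 3, and its median was -3.01. Taken circRNA by circRNA, the IP signal there was lower than the mean of the other 5 arrays by a median of 0.52. In all, 143 of the 243 were above background in neither channel of control 1, 56 in the supernatant alone, 22 in the IP alone and 22 in both. The IP over supernatant log2 ratio, centred on the array's median, had a median of -0.71 over the 243 on control 1, against -3.24 on control 2, -2.53 on control 3 and -2.33, -2.72 and -2.69 on CIH 1, 2 and 3. The ratio was below -1 for 110 of the 243 on control 1 and for 213 to 239 on the other arrays.

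Over all circRNAs the supernatant signal of control 1 was lower than on the other 5 arrays by a median of 0.37. Of 14227 with a value there, 3131 (22.0%) were below all 5 and 3624 were above all 5. On control 1, 37.5% of all circRNAs were well above background in this channel, so most of these values were below the limit. The 3776 circRNAs of both fractions with a value there were higher in the supernatant of control 1 than on the other 5 arrays by a median of 0.34, and the 327 circRNAs chosen by the mirrored rule, in the IP but not in the supernatant, were higher by a median of 0.84. Of the circRNAs of both fractions, 707 (18.7%) lay below all 5 other arrays there and 1990 above all 5. Of the 243, these were 214 (88.1%) and 0. All of these sets were chosen by detection on the 5 arrays used as the reference, which by itself favours a lower supernatant signal on an array left out for the 243 and a higher one for the IP-only set. No test applies to a difference on 1 array, and the circRNAs are not replicates. The sign of these 3 medians was the same with scaling to the array median (-1.71 for the 243, 0.68 for both fractions and 1.19 for IP only), with spike-in scaling (-2.27, 0.12 and 0.62), with quantile normalization (-1.79, 0.25 and 1.01) and with normexp background correction (-0.21, 0.17 and 0.07).

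**Figure D4:**
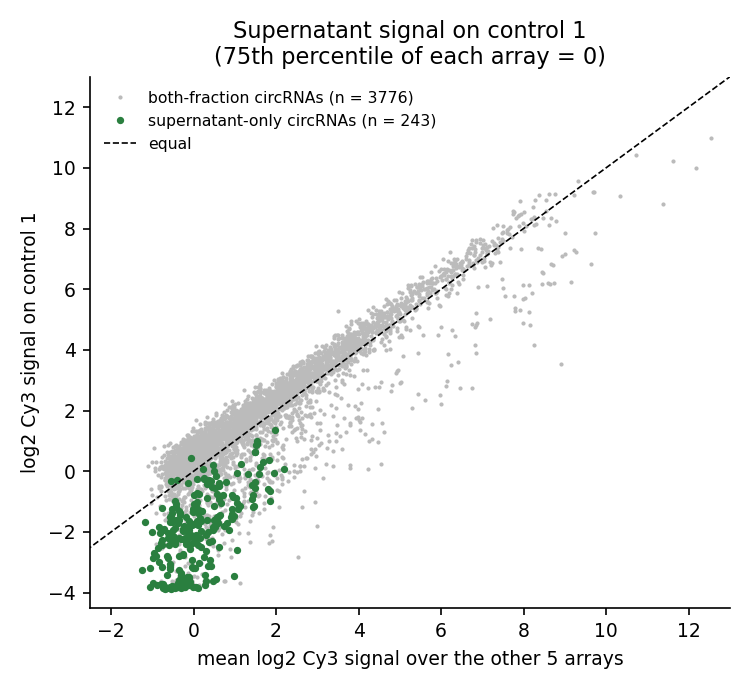
Log2 supernatant signal on control 1 against the mean over the other 5 arrays, for the 243 supernatant-only circRNAs (green) and 3776 circRNAs of both fractions (grey). The dashed line marks equal values. Most green points lie below the line, by 2.05 at the median, and the grey points lie above it by 0.34 at the median.

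The 78 circRNAs still detected in the supernatant of control 1 were the brighter ones. Their mean supernatant signal over the other 5 arrays had a median of 0.58, against -0.23 for the 165 not detected there.

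The extremes on control 1 show the range. ASCRP4006524 was higher there than the mean of the other arrays by 0.51, with a supernatant signal of 0.45 on control 1, 0.64 and 0.09 on control 2 and 3 and -0.85, 0.15 and -0.36 on CIH 1, 2 and 3. ASCRP4005686 was the lowest relative to its other arrays, with -3.46 on control 1, 1.08 and 0.22 on control 2 and 3 and 0.71, 1.46 and 1.41 on CIH 1, 2 and 3, which bounds it as at least 5.23-fold lower on control 1. In the IP channel ASCRP4005686 was well above background on control 1 at -1.50. ASCRP4011261 had the highest IP signal of the 243 on control 1 (-0.38), where its supernatant signal was below background, and IP signals of -2.91 to -0.69 on the other 5 arrays.

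The comparison of CIH with control hearts turned on control 1. Over all 6 arrays, the supernatant signal averaged higher in CIH than in control for 222 of the 243 circRNAs, with a median log2 change of 0.80 (1.74-fold), while over the 5424 circRNAs tested 38.0% were higher and the median was -0.13. Without control 1, 138 of the 243 were higher and the median log2 change was 0.07 (1.05-fold), beside 41.9% and a median of -0.06 over all circRNAs tested. The median ran from 0.75 to 1.21 when any of the other arrays was left out.

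None of the 243 passed a Benjamini-Hochberg adjusted p under 0.05 in limma, with or without control 1, and neither did any circRNA tested (0% in both fits). The smallest adjusted p among the 243 was 0.686 over all arrays and 0.528 without control 1. At an unadjusted p under 0.05, 24 of the 243 (9.88%) were higher in CIH, against 3.56% of all circRNAs tested, and 0 were lower, against 1.09%. Without control 1 there were 16 higher (6.58%, against 3.3% of all) and 11 lower (4.53%, against 1.22%). The 3 CIH arrays lay above all 3 control arrays for 31 of the 243 and below them for 1, where 5.22% and 8.13% of all circRNAs tested did so.

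**Figure D5:**
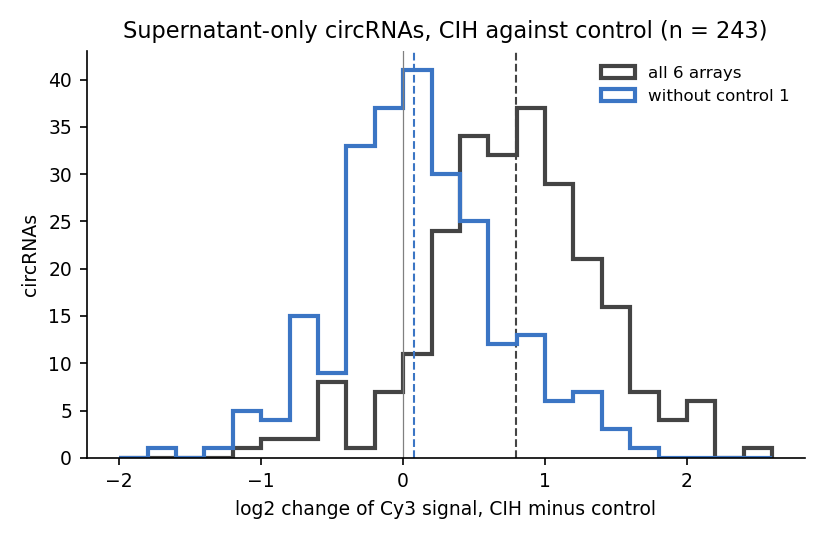
Distribution of the log2 change of supernatant signal, CIH minus control, over the 243 supernatant-only circRNAs, from all 6 arrays (black) and without control 1 (blue); dashed lines are medians. The median is 0.80 with control 1 and 0.07 without it.

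These changes were made partly of values below background, since 165 of the 243 were below the limit on control 1 and 96 on control 3. For the 51 of the 243 well above background in the supernatant on all 6 arrays, the median log2 change was 0.39. It was -0.19 over the 3348 circRNAs that passed this filter, which uses control 1 itself. Over the 5 arrays used for the choice, the rule itself limits a difference between groups, because it asks for detection on at least 4 of them. These were 3 CIH arrays but only 2 control arrays, so the 1 array that could be missed was a larger part of control. Leaving control 1 out of the choice by itself favours a lower supernatant signal there. In the change over all arrays this favours a higher signal in CIH, and its part in that change was not tested. With normexp background correction the median log2 change over all arrays was 0.05 and with array weights it was 0.17, in place of 0.80. Slide 1 held the 3 control arrays and CIH 1, on which the median change was 0.87, or 0.16 without control 1. Slide 2 held CIH 2 and 3 alone.

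Among the 51 circRNAs of the 243 detected in the supernatant of all 6 arrays, ASCRP4010941 had the smallest p for a higher signal in CIH. Its supernatant signal was -0.99, 0.89 and 1.73 on control 1, 2 and 3 and 1.96, 2.29 and 2.45 on CIH 1, 2 and 3, so each CIH array lay above each control array. The log2 change was 1.69 with SE 0.61 (limma adjusted p = 0.686), and 0.93 with SE 0.28 without control 1 (limma adjusted p = 0.946). ASCRP4005387 was next, with -1.14, 0.84 and 0.64 on control 1, 2 and 3 and 1.10, 1.58 and 1.47 on CIH 1, 2 and 3, again without overlap. Its log2 change was 1.27 over all arrays and 0.64 without control 1, and its limma adjusted p was 0.686 and 0.946.

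On the lower side, ASCRP4009647 had supernatant signals of 0.22, 0.84 and 1.33 on control 1, 2 and 3 and of -0.03, 0.22 and 0.02 on CIH 1, 2 and 3, so control 1 lay level with CIH 2 and the other 2 controls lay above. Its log2 change was -0.73 with SE 0.33 (limma adjusted p = 0.686), and -1.02 with SE 0.25 without control 1 (limma adjusted p = 0.826). ASCRP4009384 had 0.02, 1.60 and 0.93 on control 1, 2 and 3 and -0.23, 0.13 and 0.10 on CIH 1, 2 and 3, a log2 change of -0.85 that was -1.27 without control 1 (limma adjusted p = 0.686 and 0.662). In both, control 2 and 3 lay above all CIH arrays and control 1 did not.

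None of the 243 entered a test of the IP signal alone, because none was well above background there on more than 2 of the 6 arrays. Of the 243, 127 were above background in the IP channel of none of the 6 arrays and 29 on 2. The array medians of -2.22 to -2.52 in CIH lay above those of -2.75 to -3.03 in control, but these are signals at the background limit, and the median over all circRNA probes of the array was also higher in CIH (-1.79 to -1.95) than in control (-1.98 to -2.25). The number above background did not separate the groups, with 44, 38 and 1 on control 1, 2 and 3 and 1, 3 and 58 on CIH 1, 2 and 3.

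The median change in the log2 ratio of IP over supernatant changed sign with control 1. The IP signal in this ratio was mostly below the background limit, with 1 to 58 of the 243 above it on an array. The median change of the ratio over the 243, CIH minus control, was -0.35 over all 6 arrays, with 173 of the 243 lower in CIH, and 0.25 without control 1, with 151 higher. Over the 6913 circRNAs tested the median was -0.03 and -0.01, with 45.9% and 48.6% higher in CIH. Of the 243, 28.8% and 62.1% were higher in these 2 fits. None of the 243 passed an adjusted p under 0.05 in limma in either fit, as for all circRNAs tested (0%). At an unadjusted p under 0.05, 0 of the 243 were higher and 4 (1.65%) lower, where 1.14% and 1.39% of all circRNAs tested were so. Without control 1, 11 (4.53%) were higher and 1 (0.412%) lower, beside 2.89% and 2.94% of all.

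The total signal is the sum of both channels. Its median log2 change over the 243 was 0.68 over all arrays and 0.17 without control 1. With limma, 0 of the 243 passed an adjusted p under 0.05 in both fits, as did 0% of all circRNAs tested. Over all arrays, an unadjusted p under 0.05 was reached by 43 (17.7%) in the higher direction and by 1 (0.412%) in the lower, where 7.94% and 1.75% of all circRNAs tested did so. Leaving out control 2, the control array on which the 243 were brightest in the supernatant, left 15 of the 243 that passed, all higher in CIH, where 1.88% of all circRNAs tested passed in that direction. With normexp 1 passed (0.419% of all circRNAs tested), with median scaling 5 (1.17% of all) and without a filter on dim probes 3 (0.752% of all).

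The circRNAs whose supernatant profile over the 6 arrays was closest to that of ASCRP4003064 were ASCRP4003136, ASCRP4013160 and ASCRP4009836, at root mean square differences of 0.13, 0.13 and 0.14 log2 units after centring each on its own mean. ASCRP4003136 is one of the 243, with supernatant signals of -1.24 on control 1, 1.05 and 0.90 on control 2 and 3 and 0.71, 1.10 and 0.88 on CIH 1, 2 and 3. The other two are not, and ASCRP4009836 was not above background on any array in either channel. On the array surface, the 243 lay with quartiles of rows 46.5 and 150 and of columns 22 and 60, beside rows 49 and 144 and columns 21 and 62 for all circRNA probes. None of the 243 had an outlier mark or a saturated supernatant spot.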

How the data were processed

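The deposited values are intensity per spot and channel on a linear scale, 1 file for each array. Per the file headers and the submitters' processing notes, they come from Agilent Feature Extraction 11.0.1.1, which had subtracted background and matched the dyes of each array by a linear step followed by lowess. This balances the channels within an array, so a shift of all circRNAs between fractions is not measured. Here processed signals were put on a log2 scale, spots with an outlier mark were left out (35 circRNA spots over 6 arrays), and each array was set against its 75th percentile over 14236 circRNA probes (ratios against the median). The groups, of 3 arrays each, entered linear models in limma 3.58.1 under R 4.3.3 (empirical Bayes with intensity trend, two-sided) over all circRNAs well above background on at least 3 of 6 arrays, in either channel for the ratio and total. This filter was kept when an array was left out. The fits were tested on simulated data. The number of arrays limits the precision.

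The 243 members and the comparisons were chosen with earlier results of these data known. CircRNAs were named by a rule: the 5 brightest members, the 2 smallest p in each direction among members detected on all 6 arrays, the extremes on control 1, the edges of the choice and the closest profiles. The rule's upper limit on the number of members was not reached, so the edges were taken by the IP mark after the data were seen. Alternatives covered background correction (normexp, offset 50, on median signals), scaling (42 spike-in probes for one), filters, slide, replicate block, moderation, weights and each array left out.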

Additional observations from a re-analysis of the deposited data

How the results depend on the processing

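In the supernatant signal and in the log ratio, 0 of the 243 circRNAs passed in limma under all 17 and 15 alternatives. Over all circRNAs tested, 1 of 5424 passed in the supernatant signal with normexp, and none under the other alternatives for these measures. In the total signal 1 passed with normexp (0.419% of all circRNAs tested) and 3 without a filter on dim probes (0.752% of all). With median scaling 5 passed (4 higher, 1 lower, against 1.17% of all). With single arrays left out 0 to 15 passed. The 15 were without control 2, all higher in CIH, where 1.88% of all circRNAs tested passed in that direction. The median supernatant change stayed above 0 in all 18 alternatives (0.05 with normexp, 0.07 to 1.21 with single arrays left out, 0.72 for the 60 circRNAs with the supernatant mark on all 5 arrays and no IP mark). Some of these could not change it. Fits with no filter, a replicate block, no intensity trend or no moderation give 0.80 by construction. Scaling to the median moved the median over all circRNAs tested from -0.13 to -0.45 and that of the 243 to 0.47, and spike-in scaling moved them to 0.03 and 0.96. The median ratio change was above 0 with array weights (0.21) and without control 1 (0.25), and ran from -0.88 to 0.25 with single arrays left out. The median total change was 0.015 with normexp and 0.17 to 1.08 with single arrays left out. The log2 lower bound of supernatant over IP was 0.31 with normexp, loess and Aquantile, 2.66 with no floor and 1.16 to 1.60 with single arrays left out.

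On control 1, 212 of the 243 had a supernatant signal by the looser mark in place of 78. Their difference from the other arrays, tried under alternatives added after seeing the data, was -0.21 with normexp, -1.71 with median scaling, -2.27 with spike-in scaling, -1.79 with quantile normalization and -1.18 at the floor. For all of these, the cause was not tested. The shared replicate numbers were not taken to pair the samples (same-numbered deviations correlated at 0.12, 0.27 and -0.01 in the supernatant signal). With a replicate block 0 passed in each measure, and the median supernatant change was again 0.80 by construction.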

Other observations

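Among the 50 mRNA probes of the array, 1 met the rule used for the circRNAs when a probe counted as detected with most of its 10 spots well above background, and it was looked for after the circRNA results were seen. It reads Gsta4, which encodes a glutathione S-transferase that detoxifies lipid peroxidation products. Its log2 supernatant signal was -0.36 and -1.06 on control 2 and 3 and -0.21, 0.05 and -0.28 on CIH 1, 2 and 3, against -3.39 on control 1. In the IP channel it had -3.02 and -2.78 on control 2 and 3, -2.28, -2.79 and -2.68 on CIH 1, 2 and 3, and -3.82 on control 1. All 10 spots were below the background limit in both channels of control 1, and in the supernatant also on control 3. Choosing Gsta4 by detection on the other 5 arrays by itself favours a lower supernatant signal on control 1. The supernatant signal of Hspb7, which did not meet the rule, was also lowest on control 1, at 2.00 against 4.10 to 5.06 on the other arrays. The other mRNA probes are not described here.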
